A study of Schmidtea mediterranea with 16 samples.

Results

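In X1 cells of the planarian Schmidtea mediterranea, 69 of the 26833 genes in the deposited count matrix were higher after ionizing radiation both with atm knocked down and in the control, by comparable amounts. The members were chosen by their own irradiation differences: all 8 irradiated libraries lay above all 8 unirradiated ones, and the difference in atm(RNAi) was at least 0.75 of that in unc-22(RNAi). Those differences are therefore given as a description of the members, and nothing is supported with them. The largest were those of dd_Smed_v6_12394_0_1 and dd_Smed_v6_4477_0_1, which averaged 133 and 356 CPM in irradiated atm(RNAi) cells against 4.94 and 16.4 CPM in unirradiated atm(RNAi) cells.

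Planarians hold a large pool of dividing stem cells, the neoblasts, which supply all new tissue and are lost after strong irradiation. X1 is the flow cytometry gate for dissociated planarian cells with replicated DNA, and it is made up largely of neoblasts in the cell cycle. The kinase encoded by atm becomes active at double-strand breaks in DNA, and in vertebrates it phosphorylates the checkpoint kinase CHK2 and p53, which act on cell cycle arrest, repair and cell death. ATR and DNA-PK, kinases of the same family, also respond to damaged DNA in vertebrates.

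RNA interference (RNAi) was directed at atm or, as the control, at unc-22, a muscle gene of the nematode Caenorhabditis elegans. The groups were irradiated atm(RNAi), irradiated unc-22(RNAi), unirradiated atm(RNAi) and unirradiated unc-22(RNAi), each with 4 RNA-seq libraries of sorted X1 cells. Irradiated animals had received 2000 rads and their cells were taken 1 day later. The strain, the age of the animals and their number per library are not given in the sources used here. Nothing in the labels says that the libraries of a group came from separate animals or sorts, so p-values measure only the spread between these libraries, which may be technical.

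Reads counted in genes came to 13856383 to 21770698 per library in irradiated atm(RNAi), 6992662 to 15135826 in irradiated unc-22(RNAi), 18799739 to 25281683 in unirradiated atm(RNAi) and 17815406 to 26465272 in unirradiated unc-22(RNAi). CPM is the gene's share of these totals, scaled to 1000000 reads, so a single read was worth 0.143 CPM in the shallowest library and 0.0378 CPM in the deepest. Genes carry identifiers of the dd_Smed_v6 transcript assembly, which the files do not pair with names, functions, lengths or sequences. The level of the atm transcript, markers of neoblasts and of other cells, and the roles of the members were for that reason not analysed here. Levels of different genes are not comparable, because they are not per length. In sorted bulk cells, a changed mix of cells and changed RNA per cell cannot be told apart.

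Of all genes, 14105 averaged at least 0.5 CPM in each unirradiated group, and 398 of these had irradiated libraries wholly above the unirradiated ones. DA and DU denote the difference of mean log2(CPM + 1), irradiated minus unirradiated, for atm(RNAi) and for unc-22(RNAi). A DU of at least 0.8 was reached by 350 separated genes. A DA of at least 0.75 times DU was then met by the 69 members and missed by the other 281, and the upper limit of 100 genes was not reached. Among all 17843 genes tested for differences, 2.4% had irradiated libraries wholly above unirradiated ones, a property that every member has by construction.

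The members just inside and the genes just outside the thresholds had close values. The smallest DU among members were 0.801 in dd_Smed_v6_8779_0_1 and 0.805 in dd_Smed_v6_13578_0_1, while dd_Smed_v6_13740_0_1 at 0.7997 and dd_Smed_v6_8333_0_1 at 0.795 were left out. The smallest ratios of DA to DU among members were 0.754 in dd_Smed_v6_7359_0_1 and 0.755 in dd_Smed_v6_6372_0_1, while dd_Smed_v6_1953_0_1 at 0.748 and dd_Smed_v6_8538_0_1 at 0.746 were left out. Membership also turned on single libraries: the same rule found 266 genes without irradiated atm(RNAi) library 1 and 39 without irradiated atm(RNAi) library 2, with 66 and 37 of the 69 among them. Applied within a sequencing lane, it found 227 genes in lane 7 and 186 in lane 8 before the limit of 100, and 39 and 47 of the 69 were among them.

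**Figure D1:**
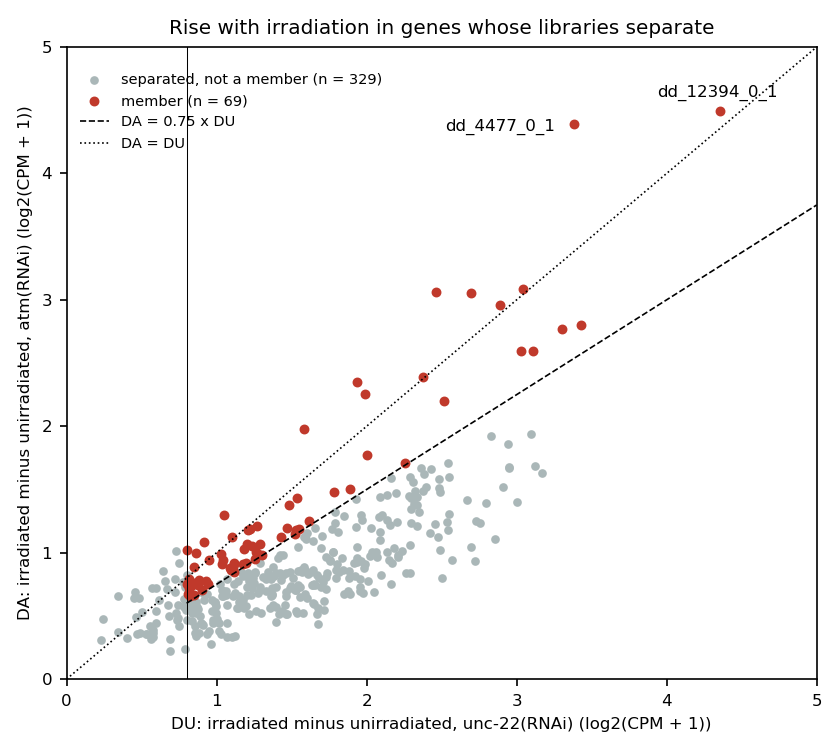
Each point is a gene whose 8 irradiated libraries all lay above its 8 unirradiated ones, with DU on the horizontal axis and DA on the vertical axis, both in log2(CPM + 1). The 69 members lie above the line for a DA of 0.75 times DU, and dd_Smed_v6_12394_0_1 and dd_Smed_v6_4477_0_1 stand at the upper right with DA of 4.49 and 4.39.

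Over the 69 members DA spanned 0.66 to 4.49 with a median of 1.07, and DU spanned 0.80 to 4.36 with a median of 1.23. Both differences reached 1, a doubling of CPM + 1, in 37 members, and both reached 2 in 12. The median ratio of DA to DU was 0.872, and DA exceeded DU in 16 members. In the other 281 separated genes the medians were 0.81 for DA and 1.60 for DU, so the genes that the rule left out had the larger difference in the control. Over all 14105 genes past the minimum level the medians were -0.02 for DA and -0.00 for DU.

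Members took 0.557% ± 0.177 of all gene reads in irradiated atm(RNAi), 0.587% ± 0.125 in irradiated unc-22(RNAi), 0.181% ± 0.00321 in unirradiated atm(RNAi) and 0.195% ± 0.00593 in unirradiated unc-22(RNAi) (mean ± SD, n = 4 libraries each). A single gene, dd_Smed_v6_238_1_1, held much of the spread in the irradiated groups. Without it the shares were 0.430% ± 0.0458, 0.492% ± 0.0764, 0.172% ± 0.00519 and 0.185% ± 0.0111, in the same order of groups, so that the SD was smaller in both irradiated groups and larger in both unirradiated groups.

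In a fit over all 17843 genes with enough reads (edgeR's quasi-likelihood test, Benjamini-Hochberg adjusted p under 0.05), irradiation in atm(RNAi) raised 49 of the 69 members, all of which had passed the filter on low counts, against 2.42% of all genes called higher, 1.15% lower and 3.58% called in either direction. Irradiation in unc-22(RNAi) raised 66 members, against 23.8% of all genes called higher, 23.5% lower and 47.3% called in either direction. Since the same differences chose the members, nothing is read from these counts. The members' median log2 fold change was 1.23 in atm(RNAi), where that of all tested genes was 0.06, and 1.28 in unc-22(RNAi), where that of all tested genes was 0.17. With another scaling of the libraries (RLE) the median of all genes in unc-22(RNAi) was 0.29 and that of the members 1.41.

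The count in atm(RNAi) depended on which library was left out. It was 27 and 28 without irradiated atm(RNAi) libraries 2 and 3, and 21, 22, 21 and 26 without unirradiated atm(RNAi) libraries 1, 2, 3 and 4. Over all genes these omissions left 148 to 181 calls of 638. The count of members was higher, at 57 and 60, without irradiated atm(RNAi) library 1 and without irradiated unc-22(RNAi) library 2. Over all genes these 2 omissions gave 1987 and 1359 calls. Lane 7 alone, with 2 libraries a group, gave 11 members in atm(RNAi) and 45 in unc-22(RNAi), and lane 8 alone gave 0 and 4. Over all genes the calls fell as well. In atm(RNAi) they went from 638 to 66 in lane 7 and 0 in lane 8. In unc-22(RNAi) they went from 8442 to 6430 in lane 7 and 58 in lane 8. The members' median log2 fold changes were 1.18 in atm(RNAi) and 1.30 in unc-22(RNAi) within lane 7, and 1.30 and 1.40 within lane 8.

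The 49 members called in atm(RNAi) were all among the 66 called in unc-22(RNAi). The rule favours this overlap, since every member had to rise in both comparisons. These share no library, but 1 fit over all 16 libraries gave the spread for both. The 49 members made up 11.3% of the 432 genes called higher in atm(RNAi). The other 383 called genes were no members because 27 were under the minimum level, 208 had overlapping libraries, 16 had a DU below 0.8 and 132 had a DA below 0.75 times DU. The 20 members not called in atm(RNAi) were mostly lower in level: the median of their unirradiated means was 2.08 CPM, with a highest value of 20.1 CPM in dd_Smed_v6_8136_0_1, against a median of 11.6 CPM for the 49 called. Their adjusted p by edgeR ran from 0.0526 to 0.392.

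**Figure D2:**
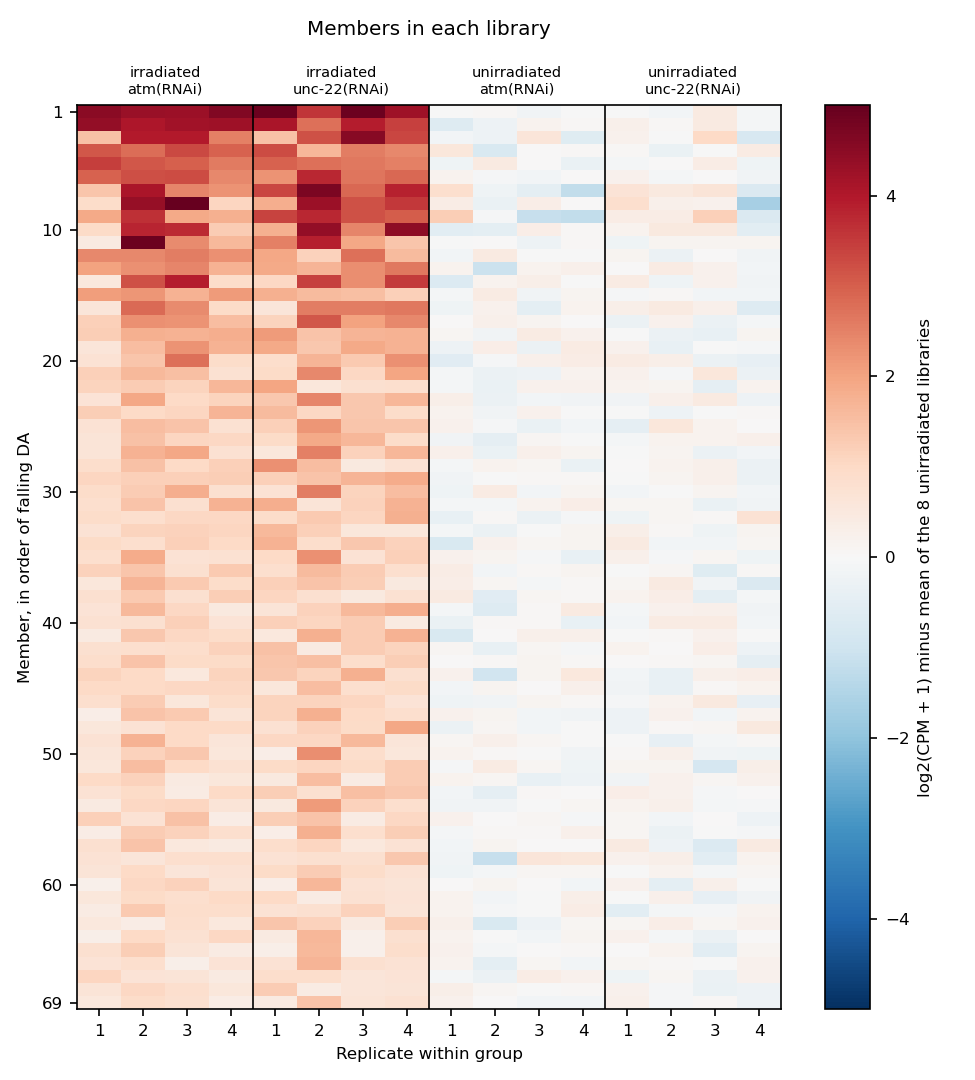
Rows are the 69 members in order of falling DA, columns are the 16 libraries by group and replicate, and colour is log2(CPM + 1) minus the mean of the 8 unirradiated libraries. All members are positive in all irradiated libraries, as the rule requires, and the shade varies between the irradiated libraries of a group.

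Of the 10 members with the largest DA, 5 were high in all 8 irradiated libraries, with no more than 3.22-fold between them. In atm(RNAi), dd_Smed_v6_12394_0_1 was at 141, 121, 119 and 152 CPM in irradiated libraries 1 to 4, against 4.98, 5.33, 4.39 and 5.05 CPM in unirradiated libraries 1 to 4. Its unc-22(RNAi) values were 182, 71.1, 183 and 116 CPM in irradiated libraries and 5.102, 4.59, 7.297 and 4.72 CPM in unirradiated ones. The irradiated values lay far above the unirradiated ones with either RNAi, and the 4 irradiated atm(RNAi) values fell within the range of the unc-22(RNAi) values. The edgeR log2 fold changes of this gene were 4.75 ± 0.31 in atm(RNAi) and 4.54 ± 0.305 in unc-22(RNAi) (± SE), and of all 17843 genes it had the smallest p in the atm(RNAi) comparison.

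dd_Smed_v6_4477_0_1 measured 403, 315, 347 and 359 CPM in the irradiated atm(RNAi) libraries, numbered 1 to 4, against 11.2, 14.9, 20.5 and 18.9 CPM in the unirradiated atm(RNAi) libraries. With unc-22(RNAi) the libraries of the same numbers gave 324, 127, 288 and 204 CPM irradiated, against 21.7, 18.7, 25.1 and 16.7 CPM unirradiated. After irradiation atm(RNAi) libraries 1, 3 and 4 were above every unc-22(RNAi) library, and library 2 was below unc-22(RNAi) library 1 only. Its log2 fold changes with irradiation were 4.45 ± 0.305 in atm(RNAi) and 3.40 ± 0.29 in unc-22(RNAi), the highest ratio of DA to DU among members at 1.30. The difference between those fold changes was 1.05 ± 0.38 and was not called (edgeR adjusted p = 0.121, with 0.0357 to 0.852 over its alternatives). It was called only without irradiated unc-22(RNAi) library 1, at 1.30 (edgeR adjusted p = 0.0357).

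For dd_Smed_v6_1620_0_1, irradiated atm(RNAi) libraries 1 to 4 gave 160.03, 123, 114 and 86.7 CPM, against 11.6, 18.6, 13.8 and 10.7 CPM without irradiation. The irradiated unc-22(RNAi) libraries held 112, 96.1, 90.1 and 81.96 CPM, against 12.5, 13.6, 17.9 and 11.6 CPM in the unirradiated unc-22(RNAi) libraries. Irradiated atm(RNAi) libraries 1, 2 and 3 lay above all irradiated unc-22(RNAi) libraries, and library 4 lay among them. Log2 fold changes were 3.14 ± 0.24 in atm(RNAi) and 2.62 ± 0.24 in unc-22(RNAi). In atm(RNAi), dd_Smed_v6_14545_0_1 was at 34.9, 28.1, 40.1 and 31.4 CPM in irradiated libraries 1 to 4, against 5.19, 1.502, 3.24 and 3.404 CPM in unirradiated libraries 1 to 4. Irradiated unc-22(RNAi) cells gave 39.8, 12.4, 24.05 and 21.3 CPM, against 3.401, 2.32, 3.14 and 4.53 CPM in unirradiated unc-22(RNAi) cells. Irradiated unc-22(RNAi) libraries 2, 3 and 4 lay below all irradiated atm(RNAi) libraries, and library 1 lay among them. Irradiation gave log2 fold changes of 3.35 ± 0.39 in atm(RNAi) and 2.73 ± 0.38 in unc-22(RNAi).

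dd_Smed_v6_4420_0_1 measured 51.1, 61.9, 63.7 and 35.1 CPM in the irradiated atm(RNAi) libraries, numbered 1 to 4, against 6.57, 5.57, 5.18 and 5.85 CPM in the unirradiated atm(RNAi) libraries. In unc-22(RNAi) it was at 31.03, 91.1, 42.5 and 48.2 CPM after irradiation, against 6.94, 5.33, 5.89 and 5.03 CPM without it. The irradiated atm(RNAi) values lay within the range of the irradiated unc-22(RNAi) values, and the unirradiated values were close together in both. Its log2 fold changes were 3.18 ± 0.25 in atm(RNAi) and 3.01 ± 0.25 in unc-22(RNAi). By smallest p in the atm(RNAi) comparison, dd_Smed_v6_12394_0_1, dd_Smed_v6_4477_0_1, dd_Smed_v6_1620_0_1 and dd_Smed_v6_4420_0_1 held ranks 1, 2, 3 and 4 among all genes, dd_Smed_v6_14545_0_1 held rank 7, and 7 members were within the first 10. In the unc-22(RNAi) comparison 1 member was. The rule and its order use DA, which favours high ranks in the atm(RNAi) comparison, so nothing is read from these ranks.

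**Figure D3:**
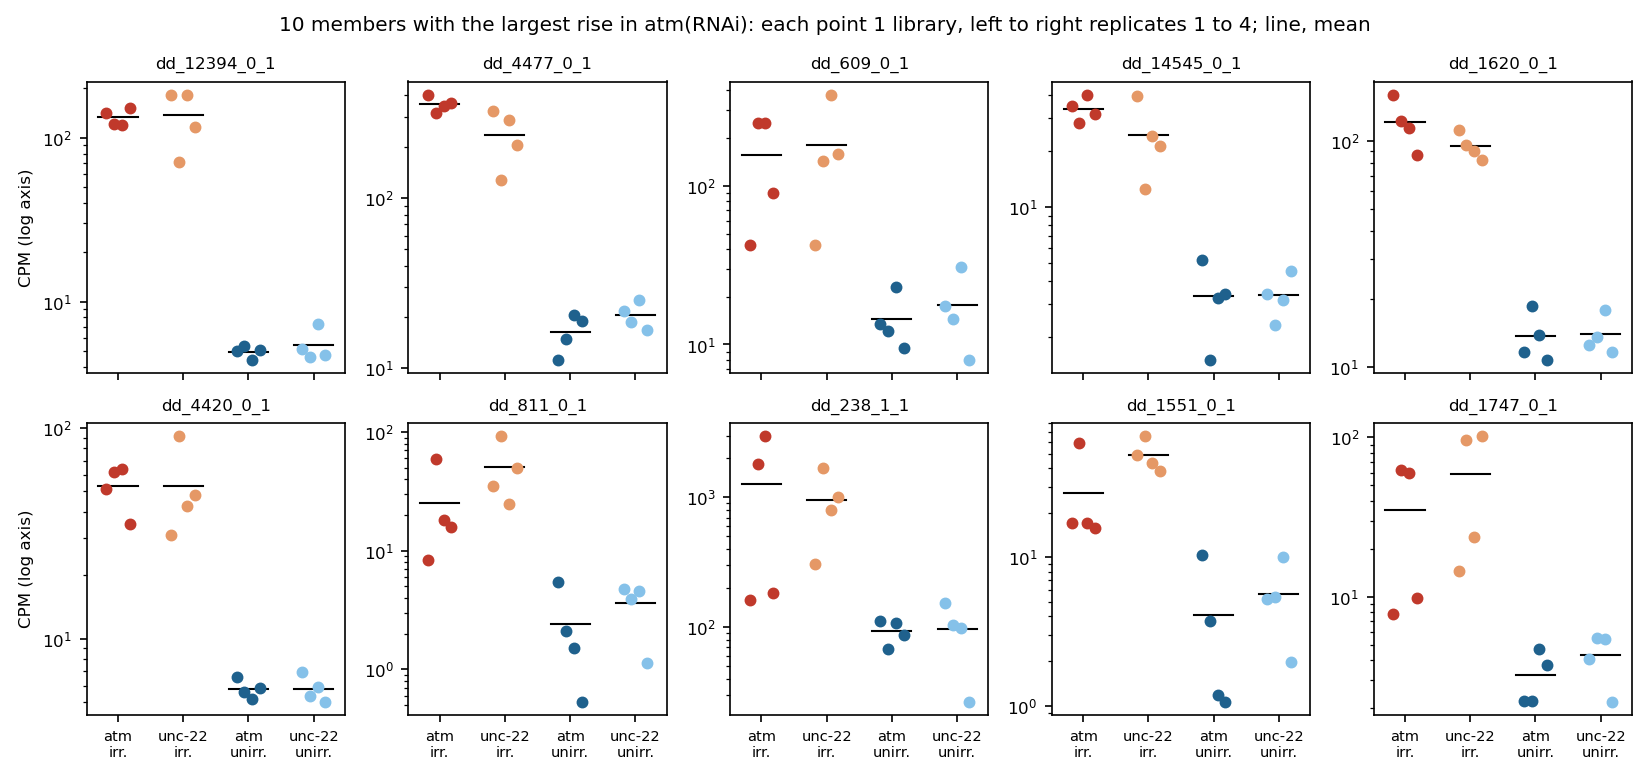
The 10 members with the largest DA are plotted by group, 1 point per library in replicate order with the group mean as a line, in CPM on a log axis; panel titles leave out Smed_v6. Irradiated points of dd_Smed_v6_12394_0_1, dd_Smed_v6_1620_0_1 and dd_Smed_v6_4420_0_1 are closer together, while those of dd_Smed_v6_238_1_1, dd_Smed_v6_609_0_1, dd_Smed_v6_811_0_1 and dd_Smed_v6_1747_0_1 spread over 8.85-fold to 18.2-fold ranges.

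The other members of the first 10 were more uneven between irradiated libraries. For dd_Smed_v6_238_1_1, irradiated atm(RNAi) libraries 1 to 4 gave 163, 1806, 2954 and 184 CPM, against 111, 67.9, 108 and 87.3 CPM without irradiation. Its unc-22(RNAi) values were 305, 1701, 796 and 1017 CPM in irradiated libraries and 155, 104, 98.8 and 26.6 CPM in unirradiated ones. Irradiated atm(RNAi) libraries 2 and 3 were high and libraries 1 and 4 were near the unirradiated range, so that the highest of the 8 irradiated values was 18.2-fold the lowest. The fitted log2 fold changes were 3.74 ± 0.77 in atm(RNAi) and 3.13 ± 0.75 in unc-22(RNAi), with the largest standard errors among the first 10 members. The call in atm(RNAi) was lost without irradiated atm(RNAi) library 3 and without any of the 4 unirradiated atm(RNAi) libraries, and the log2 fold change over all such omissions ran from 2.81 to 4.13.

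In atm(RNAi), dd_Smed_v6_609_0_1 was at 42.4, 248, 248 and 90.4 CPM in irradiated libraries 1 to 4, against 13.4, 12.2, 23.1 and 9.47 CPM in unirradiated libraries 1 to 4. With unc-22(RNAi) the libraries of the same numbers gave 42.5, 144, 375 and 159 CPM irradiated, against 17.5, 14.6, 30.98 and 7.97 CPM unirradiated. Library 1 was the lowest in both irradiated groups, at nearly equal values. By edgeR the log2 fold changes were 3.39 ± 0.61 in atm(RNAi) and 3.19 ± 0.61 in unc-22(RNAi). dd_Smed_v6_1747_0_1 measured 7.81, 62.7, 59.5 and 9.88 CPM in the irradiated atm(RNAi) libraries, numbered 1 to 4, against 2.21, 2.23, 4.67 and 3.72 CPM in the unirradiated atm(RNAi) libraries. The irradiated unc-22(RNAi) libraries held 14.6, 95.9, 23.5 and 101 CPM, against 4.09, 5.48, 5.44 and 2.19 CPM in the unirradiated unc-22(RNAi) libraries. In atm(RNAi), libraries 2 and 3 were high and 1 and 4 low, the same split as in dd_Smed_v6_238_1_1, and in unc-22(RNAi) libraries 2 and 4 were high. On the log2 scale the fold changes were 3.39 ± 0.68 in atm(RNAi) and 3.60 ± 0.68 in unc-22(RNAi), and the call in atm(RNAi) was lost without unirradiated atm(RNAi) library 1 or 2.

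For dd_Smed_v6_811_0_1, irradiated atm(RNAi) libraries 1 to 4 gave 8.31, 58.7, 18.1 and 15.9 CPM, against 5.44, 2.08, 1.503 and 0.532 CPM without irradiation. Irradiated unc-22(RNAi) cells gave 35.3, 91.9, 24.97 and 50.2 CPM, against 4.73, 3.95, 4.55 and 1.13 CPM in unirradiated unc-22(RNAi) cells. Irradiated atm(RNAi) library 1 was the lowest irradiated library, and library 2 was the highest of its group with either RNAi. Log2 fold changes were 3.32 ± 0.64 in atm(RNAi) and 3.64 ± 0.645 in unc-22(RNAi). In atm(RNAi), dd_Smed_v6_1551_0_1 was at 16.995, 59.5, 16.9 and 15.7 CPM in irradiated libraries 1 to 4, against 10.4, 3.73, 1.19 and 1.06 CPM in unirradiated libraries 1 to 4. In unc-22(RNAi) it was at 49.2, 65.4, 43.1 and 38.3 CPM after irradiation, against 5.24, 5.38, 9.99 and 1.96 CPM without it. Irradiated atm(RNAi) libraries 1, 3 and 4 lay below all irradiated unc-22(RNAi) libraries, and library 2 lay among them. Irradiation gave log2 fold changes of 2.67 ± 0.62 in atm(RNAi) and 2.95 ± 0.62 in unc-22(RNAi), and the call in atm(RNAi) was lost without irradiated atm(RNAi) library 2 or without unirradiated atm(RNAi) library 2, 3 or 4, with values from 2.08 to 3.67 over the omissions.

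Over all 69 members the highest of the 8 irradiated CPM values was a median of 2.62-fold the lowest, with a range from 1.52-fold to 28.97-fold. The range was under 2-fold in 17 members (24.6%), and it reached 5-fold in 8 members (11.6%). In the other 281 separated genes the median was 3.13-fold, 49 genes (17.4%) were under 2-fold and 60 (21.4%) reached 5-fold. The range takes in both RNAi groups, which the requirement on DA holds closer together in members. Nothing is read from that contrast. The 8 uneven members were dd_Smed_v6_1933_0_1 at 28.97-fold, dd_Smed_v6_238_1_1 at 18.2-fold, dd_Smed_v6_1747_0_1 at 12.97-fold, dd_Smed_v6_4540_0_1 at 11.4-fold, dd_Smed_v6_811_0_1 at 11.1-fold, dd_Smed_v6_609_0_1 at 8.85-fold, dd_Smed_v6_5031_0_1 at 7.07-fold and dd_Smed_v6_14595_0_1 at 6.28-fold. Of the 17 even members, 14 were called in atm(RNAi), and of the 8 uneven members all but dd_Smed_v6_14595_0_1 were. Among all 69 members 71% were called, and among all tested genes 3.58%, so nothing is read from these counts.

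Irradiated atm(RNAi) library 1 was the lowest of the 8 irradiated libraries in 7 of the 8 uneven members, in 4 of the 17 even members and in 21 of all 69 (30.4%). It was the lowest in 175 of the other 281 genes (62.3%), a contrast that the requirement on DA itself favours. The members' median difference from the unirradiated mean was 0.82, 1.39, 1.13 and 0.99 in irradiated atm(RNAi) libraries 1 to 4, against 1.13, 1.55, 1.25 and 1.25 in irradiated unc-22(RNAi) libraries 1 to 4, in log2(CPM + 1). In the other 281 genes these medians were 0.55, 1.21, 0.93 and 0.75 in atm(RNAi), against 1.34, 1.80, 1.46 and 1.41 in unc-22(RNAi). Library 1 was thus the lowest and library 2 the highest of both irradiated groups in both sets of genes. What set these libraries apart was not tested.

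**Figure D4:**
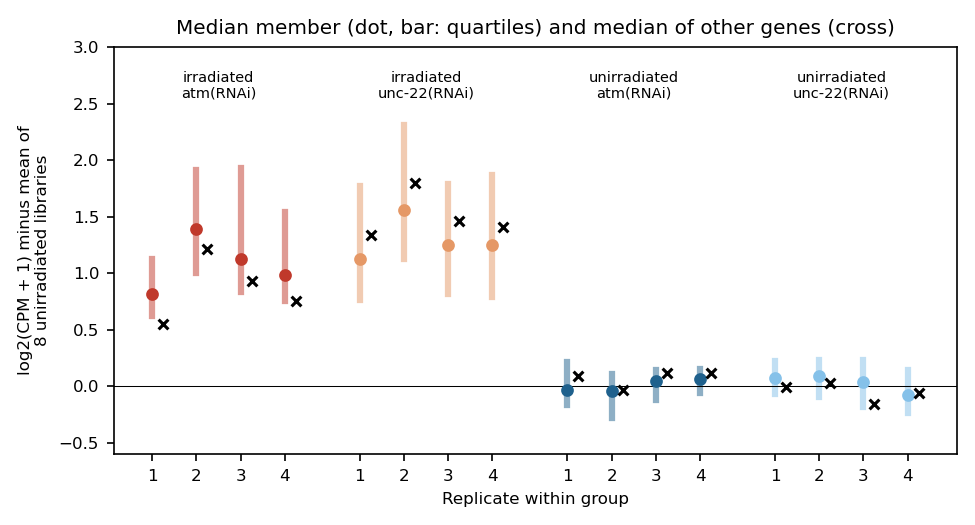
For each library, the dot is the median member and the bar its quartiles, and the cross is the median of the other 281 separated genes, in log2(CPM + 1) minus the mean of the 8 unirradiated libraries. In irradiated unc-22(RNAi) the crosses lie above the dots and in irradiated atm(RNAi) below them, and library 1 is the lowest and library 2 the highest dot of each irradiated group.

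The SD of a member between the 4 libraries of a group was a median of 0.34 in irradiated atm(RNAi), 0.48 in irradiated unc-22(RNAi), 0.23 in unirradiated atm(RNAi) and 0.24 in unirradiated unc-22(RNAi), in log2(CPM + 1). Over all 14105 genes past the minimum level these medians were 0.31, 0.46, 0.20 and 0.26, in the same order. The medians of members and of all genes were close, and both were higher after irradiation. The separation that the rule requires limits a member's spread, so nothing more is read from them.

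Apart from dd_Smed_v6_238_1_1 and dd_Smed_v6_4477_0_1, the members with the most reads had small differences. With dd_Smed_v6_238_1_1, the genes dd_Smed_v6_753_0_1, dd_Smed_v6_34_0_1 and dd_Smed_v6_505_0_1 took 48.9% to 67.2% of the members' reads in irradiated atm(RNAi) libraries, 48.9% to 65.3% in irradiated unc-22(RNAi), 61.4% to 67.0% in unirradiated atm(RNAi) and 64.4% to 70.6% in unirradiated unc-22(RNAi). dd_Smed_v6_753_0_1 measured 706, 796, 955 and 959 CPM in the irradiated atm(RNAi) libraries, numbered 1 to 4, against 386, 515, 436 and 468 CPM in the unirradiated atm(RNAi) libraries. Its unc-22(RNAi) values were 811, 1071, 919 and 1850 CPM in irradiated libraries and 399, 494, 508 and 668 CPM in unirradiated ones. Library 4 was the highest with unc-22(RNAi) in irradiated and in unirradiated cells. Its log2 fold changes were 0.92 ± 0.24 in atm(RNAi) and 1.02 ± 0.24 in unc-22(RNAi). The atm(RNAi) call was lost in 10 of 16 omissions of a library: irradiated atm(RNAi) 2, 3 or 4, any unirradiated atm(RNAi) library, and unirradiated unc-22(RNAi) 1, 2 or 3.

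For dd_Smed_v6_505_0_1, irradiated atm(RNAi) libraries 1 to 4 gave 495, 466, 537 and 537 CPM, against 203, 273, 211 and 251 CPM without irradiation. With unc-22(RNAi) the libraries of the same numbers gave 489.9, 647, 555 and 909 CPM irradiated, against 228, 279.7, 274 and 430.3 CPM unirradiated. Its highest unc-22(RNAi) library was also number 4 in both conditions, and its 4 irradiated atm(RNAi) values were close together. The fitted log2 fold changes were 1.11 ± 0.22 in atm(RNAi) and 0.95 ± 0.22 in unc-22(RNAi), with the atm(RNAi) call lost without unirradiated atm(RNAi) library 1 or 3. In atm(RNAi), dd_Smed_v6_34_0_1 was at 548, 711, 649 and 487 CPM in irradiated libraries 1 to 4, against 435, 384, 344 and 344 CPM in unirradiated libraries 1 to 4. The irradiated unc-22(RNAi) libraries held 511, 997, 595 and 644 CPM, against 443, 363, 395 and 312 CPM in the unirradiated unc-22(RNAi) libraries. This gene closed the list with the smallest DA, 0.66, and its lowest irradiated library was close to its highest unirradiated one. By edgeR the log2 fold changes were 0.65 ± 0.16 in atm(RNAi) and 0.69 ± 0.16 in unc-22(RNAi). The atm(RNAi) call was lost without irradiated atm(RNAi) library 2 or 3 and without any unirradiated atm(RNAi) library.

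In 16 members DA exceeded DU. The edgeR estimate of the difference of fold changes was positive in all 16, also with RLE scaling, and in none of them did it pass the test. Over all 69 members it was positive in 31 with TMM scaling and in 22 with RLE scaling, so that the count depends on how libraries are scaled. Beside dd_Smed_v6_4477_0_1, the highest ratios of DA to DU were 1.27 in dd_Smed_v6_13578_0_1 and 1.25 in dd_Smed_v6_11374_0_1.

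dd_Smed_v6_11374_0_1 measured 67.3, 72.5, 51.7 and 68.7 CPM in the irradiated atm(RNAi) libraries, numbered 1 to 4, against 13.8, 19.96, 13.2 and 16.4 CPM in the unirradiated atm(RNAi) libraries. Irradiated unc-22(RNAi) cells gave 54.5, 47.2, 44.5 and 35.7 CPM, against 14.5, 15.6, 13.6 and 13.7 CPM in unirradiated unc-22(RNAi) cells. After irradiation 3 of the 4 atm(RNAi) libraries lay above all unc-22(RNAi) libraries, while without irradiation the groups overlapped. Log2 fold changes with irradiation were 2.02 ± 0.18 in atm(RNAi) and 1.51 ± 0.18 in unc-22(RNAi). For dd_Smed_v6_13578_0_1, irradiated atm(RNAi) libraries 1 to 4 gave 18.4, 25.98, 18.3 and 25.1 CPM, against 13.9, 6.44, 10.96 and 10.6 CPM without irradiation. In unc-22(RNAi) it was at 22.5, 18.5, 14.3 and 17.95 CPM after irradiation, against 11.4, 12.9, 6.904 and 9.45 CPM without it. Irradiated values of the RNAi groups overlapped, and the gap to the highest unirradiated library was small. On the log2 scale the fold changes were 1.06 ± 0.24 in atm(RNAi) and 0.71 ± 0.24 in unc-22(RNAi). The atm(RNAi) call of dd_Smed_v6_13578_0_1 was lost without irradiated atm(RNAi) library 2 or 4 or unirradiated atm(RNAi) library 2, 3 or 4, and the unc-22(RNAi) call without irradiated unc-22(RNAi) library 1 or unirradiated unc-22(RNAi) library 3 or 4.

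At the other end, 3 members had ratios of DA to DU of 0.754 to 0.755. In atm(RNAi), dd_Smed_v6_7359_0_1 was at 28.3, 42.1, 29.9 and 29.97 CPM in irradiated libraries 1 to 4, against 15.2, 15.7, 16.7 and 15.6 CPM in unirradiated libraries 1 to 4. Its unc-22(RNAi) values were 40.9, 44.1, 28.3 and 37.3 CPM in irradiated libraries and 15.4, 15.9, 16.3 and 10.8 CPM in unirradiated ones. The irradiated ranges overlapped, with library 2 the highest in both. Log2 fold changes were 1.03 ± 0.17 in atm(RNAi) and 1.21 ± 0.17 in unc-22(RNAi). dd_Smed_v6_6372_0_1 measured 34.5, 64.8, 59.9 and 48.5 CPM in the irradiated atm(RNAi) libraries, numbered 1 to 4, against 24.6, 27.5, 27.5 and 31.6 CPM in the unirradiated atm(RNAi) libraries. With unc-22(RNAi) the libraries of the same numbers gave 33.6, 93.1, 47.97 and 62.6 CPM irradiated, against 28.1, 21.1, 26.2 and 25.01 CPM unirradiated. Library 1 was lowest and library 2 highest in both irradiated groups. Irradiation gave log2 fold changes of 0.88 ± 0.22 in atm(RNAi) and 1.06 ± 0.22 in unc-22(RNAi), and the atm(RNAi) call was lost without irradiated atm(RNAi) library 2, 3 or 4 and without any unirradiated atm(RNAi) library.

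For dd_Smed_v6_13658_0_1, irradiated atm(RNAi) libraries 1 to 4 gave 3.26, 4.47, 7.03 and 2.95 CPM, against 0.976, 1.99, 1.07 and 1.49 CPM without irradiation. The irradiated unc-22(RNAi) libraries held 2.72, 12.4, 3.898 and 5.72 CPM, against 1.06, 1.23, 1.52 and 1.06 CPM in the unirradiated unc-22(RNAi) libraries. Irradiated unc-22(RNAi) library 2 stood above all others. The log2 fold change in atm(RNAi) was 1.66 ± 0.46 and was not called (edgeR adjusted p = 0.0526), and that in unc-22(RNAi) was 2.14 ± 0.47 and was called. The atm(RNAi) difference was called without irradiated atm(RNAi) library 1 and without irradiated unc-22(RNAi) library 1 or 2.

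The lowest unirradiated levels among members were those of dd_Smed_v6_14595_0_1, dd_Smed_v6_19076_0_1 and dd_Smed_v6_5031_0_1. In atm(RNAi), dd_Smed_v6_14595_0_1 was at 1.42, 2.89, 8.94 and 1.805 CPM in irradiated libraries 1 to 4, against 0, 0.436, 0.791 and 0.904 CPM in unirradiated libraries 1 to 4. Irradiated unc-22(RNAi) cells gave 1.72, 3.77, 2.71 and 6.28 CPM, against 0.965, 0.839, 0.225 and 0.113 CPM in unirradiated unc-22(RNAi) cells. Unirradiated atm(RNAi) library 1 held 0 reads of this gene, which allows a level of up to 0.154 CPM (3 reads, counting error only). The log2 fold change was not called in atm(RNAi) at 2.80 ± 0.89 (edgeR adjusted p = 0.0769) and was called in unc-22(RNAi) at 2.63 ± 0.885. The atm(RNAi) difference was called without irradiated atm(RNAi) library 1, and the unc-22(RNAi) call was lost without irradiated library 4 or unirradiated library 3 or 4 of unc-22(RNAi).

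dd_Smed_v6_5031_0_1 measured 1.61, 11.1, 7.64 and 2.28 CPM in the irradiated atm(RNAi) libraries, numbered 1 to 4, against 0.462, 0.969, 0.198 and 0.904 CPM in the unirradiated atm(RNAi) libraries. In unc-22(RNAi) it was at 1.57, 8.96, 8.99 and 9.42 CPM after irradiation, against 1.103, 1.28, 1.01 and 0.0756 CPM without it. Irradiated library 1 was far below the other irradiated libraries in unc-22(RNAi), at 11 reads, and libraries 1 and 4 were low in atm(RNAi). The fitted log2 fold changes were 3.08 ± 0.78 in atm(RNAi) and 2.91 ± 0.77 in unc-22(RNAi) and both were called. The call in atm(RNAi) was lost in 8 of 16 omissions: irradiated atm(RNAi) library 2 or 3, any unirradiated atm(RNAi) library, and unirradiated unc-22(RNAi) library 1 or 3.

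For dd_Smed_v6_19076_0_1, irradiated atm(RNAi) libraries 1 to 4 gave 2.25, 2.67, 1.21 and 1.43 CPM, against 0.822, 0.727, 0.277 and 0.372 CPM without irradiation. Its unc-22(RNAi) values were 1.29, 3.77, 1.19 and 2.98 CPM in irradiated libraries and 0.46, 0.888, 0.73 and 0.907 CPM in unirradiated ones. Its highest unirradiated and lowest irradiated libraries were close. Its differences of 1.74 ± 0.59 in atm(RNAi) and 1.44 ± 0.59 in unc-22(RNAi) were not called (edgeR adjusted p = 0.0969 and 0.0515). The unc-22(RNAi) difference was called without irradiated unc-22(RNAi) library 1 or 3. The other members not called in unc-22(RNAi) were dd_Smed_v6_22875_0_1 and dd_Smed_v6_3924_0_1, with edgeR adjusted p of 0.107 and 0.130, a pair named after their values were seen.

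The knockdown itself was set against the control within each condition, with the reservation that all 4 groups had entered the rule. The requirement on DA favours few members called lower in irradiated atm(RNAi), so nothing is read from the count of members in irradiated cells. In irradiated cells 1 member was called between atm(RNAi) and unc-22(RNAi) by edgeR, against 14.8% of all genes called, 11.5% higher and 3.36% lower. This was dd_Smed_v6_11374_0_1, at a log2 fold change of 0.62 ± 0.17 (edgeR adjusted p = 0.0242, with 0.00487 to 0.557 over its alternatives). It lost the call without irradiated atm(RNAi) library 1 or 4 or irradiated unc-22(RNAi) library 4, and with RLE scaling, no filter on low counts, the compared groups alone or either lane alone. Leaving out irradiated unc-22(RNAi) library 1 or 3 made the count of members 3 or 2. The calls over all genes, 2645, moved as well, to 1157 without irradiated atm(RNAi) library 1 and to 4366 and 1725 without irradiated unc-22(RNAi) libraries 1 and 4.

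The members' median log2 fold change between atm(RNAi) and unc-22(RNAi) in irradiated cells was -0.08, and that of all tested genes was 0.00. In log2(CPM + 1), 49 of the 69 members had the lower mean in irradiated atm(RNAi). The median difference over the 69 was -0.14, against 0.04 over all 14105 genes past the minimum level. In no member did the 4 libraries of atm(RNAi) lie wholly above or below those of unc-22(RNAi). Neither count was made over all genes, and the requirement on DA favours overlap, so nothing is read from either. Of the other 281 separated genes 68 were called, and their median log2 fold change was -0.55. Having missed the requirement on DA favours such lower levels in irradiated atm(RNAi).

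In unirradiated cells edgeR called 0 members and 0% of all genes between atm(RNAi) and unc-22(RNAi). At an unadjusted p under 0.05 there were 0 members and 278 genes in all. DESeq2 and limma-voom also called 0 members, and over all genes they called 1 and 0. The members' median log2 fold change was -0.06. No member had non-overlapping libraries, a count not made over all genes, so nothing is read from it.

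The difference between the irradiation effects in atm(RNAi) and unc-22(RNAi), tested as an interaction, was called by edgeR in 0 members and in 3.58% of all genes, 3.07% in the positive and 0.504% in the negative direction. The 638 calls over all genes became 1432 with DESeq2, 11 in lane 7 alone and 0 in lane 8 alone. They ranged from 151 to 1872 with 1 library left out, and moved by over 1.5 times in every omission other than irradiated unc-22(RNAi) libraries 2 and 3. With the requirement on DA in the rule, few calls among members are built in. At an unadjusted edgeR p under 0.05 there was 1 member, dd_Smed_v6_4477_0_1, a count not made over all genes, so nothing is read from it. DESeq2 and limma-voom called 0 members, against 1432 and 1100 genes in all. The standard error of this difference was a median of 0.39 over the members and ranged from 0.18 to 1.198 on the log2 scale. A missed threshold at such errors does not show that the effects were equal. In the other 281 genes 16 were called, and the median difference was -0.66, a direction that missing the requirement on DA builds in.

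Strand and transcript properties of the members, which the rule did not use, were set beside those of all 14105 genes past the minimum level. The files list 1 transcript for 57 of the 69 members (82.6%), against 81.1% of those genes. Reads on the opposite strand were a median of 1.09% of both strands' reads in members and 1.09% in all genes. None of the members reached 10% opposite-strand reads, while 2.1% of the other 281 separated genes and 4.13% of all genes did. The highest member, dd_Smed_v6_8136_0_1, was close to that cut at 9.83%, so nothing is read from the count. The median of mean unirradiated levels, values that entered the rule, was 6.87 CPM in members and 9.21 CPM in all genes.

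Among the 10 members with the largest DA, the files split dd_Smed_v6_609_0_1, dd_Smed_v6_14545_0_1 and dd_Smed_v6_4420_0_1 into several transcripts. In dd_Smed_v6_609_0_1 the first transcript held 55.3% of the gene's reads in irradiated atm(RNAi) and 58.3% in irradiated unc-22(RNAi), and both of its main transcripts had a DA of 2.99 or 3.01 and a DU of 2.96 or 2.98. In dd_Smed_v6_14545_0_1 a single transcript held 99.2% of the reads. In dd_Smed_v6_4420_0_1, picked out here after its values were seen, the transcripts did not move alike.

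The second transcript, dd_Smed_v6_4420_0_2, was at 47.9, 38.9, 38.9 and 28.7 CPM in irradiated atm(RNAi) libraries 1 to 4, against 21.7, 26.8, 22.7 and 14.8 CPM in irradiated unc-22(RNAi) libraries 1 to 4. In unirradiated cells it was at 2.98, 2.57, 3.16 and 2.71 CPM with atm(RNAi) and at 2.07, 2.57, 4.27 and 2.19 CPM with unc-22(RNAi). The irradiated groups did not overlap, with atm(RNAi) higher, whereas the gene as a whole had overlapping ranges.

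The first transcript, dd_Smed_v6_4420_0_1, was at 1.47, 14.7, 17.8 and 3.66 CPM in irradiated atm(RNAi) libraries, against 4.15, 40.9, 12.4 and 21.1 CPM in irradiated unc-22(RNAi) libraries. It was uneven in both groups, and irradiated atm(RNAi) library 1 lay within its unirradiated range. The second transcript made up 74.9% ± 15.7 of the gene's reads in irradiated atm(RNAi), 45.9% ± 19.5 in irradiated unc-22(RNAi), 49.7% ± 7.59 in unirradiated atm(RNAi) and 48.5% ± 17.7 in unirradiated unc-22(RNAi) (mean ± SD, n = 4 each). These shares were not tested, and reads that transcripts share cannot be assigned with certainty.

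**Figure D5:**
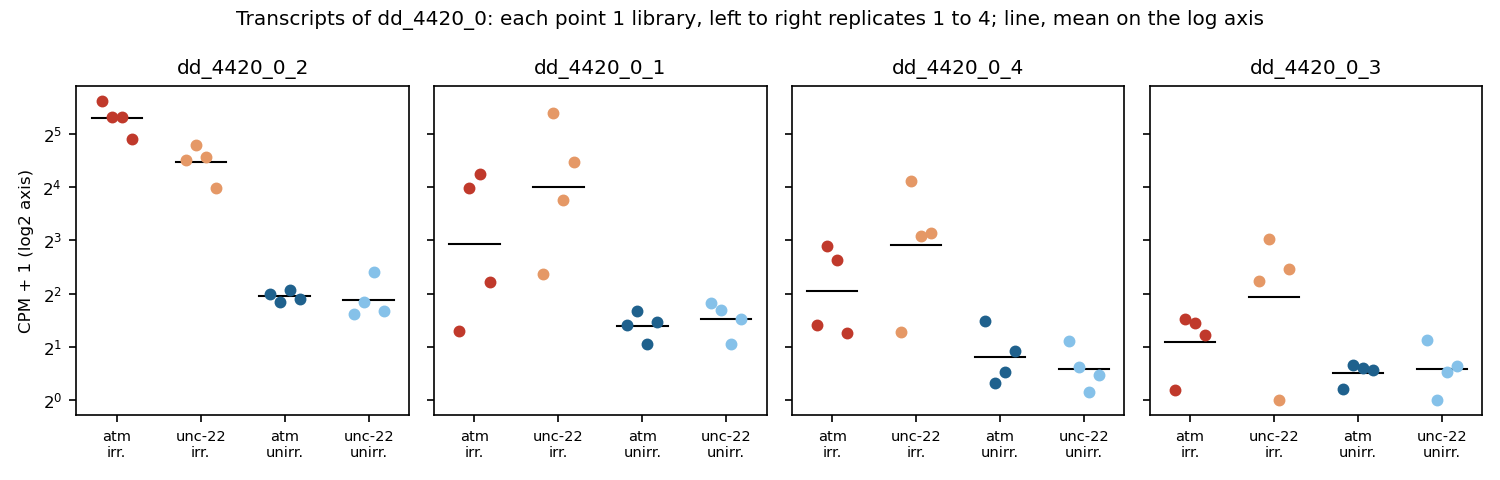
The transcripts of the gene dd_Smed_v6_4420_0_1 are plotted by group, 1 point per library in replicate order with a line for the mean on the log axis, in CPM + 1 on a log2 axis. In the panel of the second transcript all irradiated atm(RNAi) points, at 28.7 to 47.9 CPM, lie above all irradiated unc-22(RNAi) points, at 14.8 to 26.8 CPM.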

How the data were processed

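RNA of sorted X1 cells was made into strand-specific libraries with a directional NEBNext kit, per the labels' protocols. The submitters' processing notes name Trim Galore 0.6.5 and STAR 2.7.9; settings are not given in the sources used here. The authors deposited raw read counts as a gene matrix of 16 libraries and as a per-library transcript file with unstranded and stranded columns. All 429328 matrix values equal the sums of the reverse-strand column over each gene's transcripts. Lines that name no gene were left out of totals and tests.

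Groups came from the labels, and lanes 7 (replicates 3 and 4) and 8 (replicates 1 and 2) from file names. CPM used gene totals. The members, gene choices and tests were chosen with earlier results of these data known. Named genes were the 10 members with the largest DA, the 5 with the highest mean CPM, 3 with the highest and 3 with the lowest DA/DU, 3 with the lowest unirradiated level, members called between RNAi groups, and genes beside each threshold; others are said to be chosen after seeing values.

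Tests used edgeR 4.0.16 (quasi-likelihood, TMM, filterByExpr) in R 4.3.3 with 4 group means over 16 libraries and 12 residual degrees of freedom; 17843 genes were tested and 8990 removed for low counts. SE was the absolute log2 fold change over the square root of F. The scripts were tested on simulated data. Alternatives were DESeq2 1.42.0, limma 3.58.1 voom, RLE scaling, no filter, the compared groups alone, a replicate block, each lane alone and each library left out. Marker and pathway lists, which need gene names, were not used here.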

Additional observations from a re-analysis of the deposited data

Results flagged for a closer look

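For each named member in log2(CPM + 1), and for the median member and the members' share of reads, a library was marked where its gap to the nearest other library of its group exceeded Dixon's 95% limit as a share of the group's range, which chance gives in about 1 of 20 groups; 6 of 92 groups were marked. In unirradiated unc-22(RNAi) library 4, dd_Smed_v6_811_0_1 was at 1.13 CPM, with the others at 3.95 to 4.73 CPM. In that library dd_Smed_v6_7359_0_1 was at 10.8 CPM, with the others at 15.4 to 16.3 CPM, and dd_Smed_v6_5031_0_1 was at 0.0756 CPM, with the others at 1.01 to 1.28 CPM. In irradiated atm(RNAi) library 2, dd_Smed_v6_1551_0_1 was at 59.5 CPM, with the others at 15.7 to 17.0 CPM, and dd_Smed_v6_7359_0_1 was at 42.1 CPM, with the others at 28.3 to 29.97 CPM. In irradiated unc-22(RNAi) library 1, dd_Smed_v6_5031_0_1 was at 1.57 CPM, with the others at 8.96 to 9.42 CPM.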

How the results depend on the processing

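For atm(RNAi) 11 members were called with lane 7 alone and 0 with lane 8 alone, beside 66 and 0 genes in all. For unc-22(RNAi) 4 members were called with lane 8 alone, beside 58 genes in all. These fits have 2 libraries a group. Between atm(RNAi) and unc-22(RNAi) in irradiated cells the count of 1 became 2 with DESeq2, 4 with limma-voom, and 0 with RLE scaling, with the compared groups alone, with no filter on low counts and in either lane alone. The count of all genes called, 2645, became 3549, 4252, 2367, 0 and 2150 in that order, and 931 and 0 in lanes 7 and 8. The rule found 227 genes in lane 7 and 186 in lane 8. Leaving out each library gave 21 to 60 members called in atm(RNAi), 60 to 66 in unc-22(RNAi), 0 to 3 between RNAi groups in irradiated cells, 0 in unirradiated cells, 0 to 1 for the interaction and 39 to 266 members by the rule, with median log2 fold changes of 1.21 to 1.30 with atm(RNAi) and 1.21 to 1.34 with unc-22(RNAi). The same omissions gave 148 to 1987, 7388 to 9074, 1157 to 4366, 0 and 151 to 1872 calls over all genes, in the same order of comparisons. By the rule, TMM-scaled CPM gave 75 members (51 of the 69), a pseudocount of 0.5 gave 76 (all 69), no minimum level gave 75 (all 69) and unstranded counts gave 65 (60 of the 69).

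Same-numbered libraries of different groups correlated at -0.12 to 0.61 over 24 pairs, 16 of them over 0.1 (median 0.117), against 11 of 72 pairs of different numbers (median -0.042). Not every same-numbered pair passed 0.1, so the numbers were not used to pair libraries; irradiated libraries 1 and 2 did vary together across RNAi groups, at 0.607 and 0.477. With a replicate block 51 members were called in atm(RNAi), 63 in unc-22(RNAi), 2 between RNAi groups in irradiated cells, 0 in unirradiated cells and 0 for the interaction. The block's calls over all genes were 866, 8520, 3692, 0 and 1258 in the same order, against 638, 8442, 2645, 0 and 638 without it. Without the block the calls over all genes in atm(RNAi) became 2000 by DESeq2, 0 in lane 8 and 148 to 1987 with a library left out. The calls between RNAi groups in irradiated cells were 2645, with 0 from the compared groups alone. No irradiation log2 fold change of a named gene changed sign; differences between RNAi groups and interactions that were not called did in some alternatives. The cause of these differences was not tested. Members under 5 CPM in unirradiated cells made up 40.6%, against 39.9% of all genes past the minimum level.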
